A study of Homo sapiens with 6 samples.

Results

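The E2F transcription factors and their DP dimer partners are 10 of the 35974 genes in the deposited table, chosen by gene name: E2F1 to E2F8, TFDP1 and TFDP2. All 10 had a row and all 10 passed the filter on low counts. They were measured by poly(A) RNA sequencing in SU-DHL-8, an established human cell line of diffuse large B-cell lymphoma that is wild type for DNMT1. Of the 6 libraries, 3 came from cells given the solvent DMSO and 3 from cells given GSK3685032, which inhibits DNMT1, the enzyme that copies DNA methylation after replication. Inhibitor replicates 2 and 3 carry the treatment labels GSK3685033 and GSK3685034, while the series design names GSK3685032 alone, so the members were also tested with inhibitor replicate 1 by itself. The labels used here give neither dose nor duration. One cell line was used, with no second line to set beside it.

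E2F proteins bind the promoters of genes for DNA synthesis and cell cycle progression, mostly as dimers with a DP protein. In resting cells the pocket proteins (RB1 and its relatives RBL1 and RBL2) hold E2F in check, and phosphorylation by cyclin-dependent kinases releases it at the passage from G1 to S phase. E2F1, E2F2 and E2F3 are classed as activators and E2F4 and E2F5 as repressors that act with pocket proteins. E2F6 represses without pocket proteins, within a Polycomb-type complex, and E2F7 and E2F8 are atypical repressors that bind DNA without a DP partner. Several E2F genes carry E2F sites in their own promoters, so their mRNA is itself an E2F-regulated readout.

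To show that arrangement, the promoters of members in which an E2F site was found are printed here. RefSeq promoter entries (build GRCh38.p14, 250 bases before to 50 after a start) matched 8 of the 10 members, all but E2F5 and E2F8. The E2F site was searched on both strands as any of the words TTTCCCGC, TTTCGCGC, TTTGCCGC and TTTGGCGC. It was present for 4 members with an entry (E2F1, E2F2, E2F3 and TFDP1) and in 3.99% of the 27305 genes with an entry. Each stretch below runs 5′ to 3′ on the gene's strand up to the last base before the start (for TFDP1 before the earlier start in the deposited table), and capitals mark the site as read on that strand.
E2F1, chr20:33686386-33686535, minus strand: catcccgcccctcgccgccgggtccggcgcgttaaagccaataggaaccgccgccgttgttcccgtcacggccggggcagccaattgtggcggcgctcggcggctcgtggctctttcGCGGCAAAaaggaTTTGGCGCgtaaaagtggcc
E2F2, chr1:23531234-23531383, minus strand: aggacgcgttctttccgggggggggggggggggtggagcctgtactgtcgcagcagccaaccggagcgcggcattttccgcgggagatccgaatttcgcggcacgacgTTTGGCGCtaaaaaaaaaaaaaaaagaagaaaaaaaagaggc
E2F3, chr6:20401729-20401878, plus strand: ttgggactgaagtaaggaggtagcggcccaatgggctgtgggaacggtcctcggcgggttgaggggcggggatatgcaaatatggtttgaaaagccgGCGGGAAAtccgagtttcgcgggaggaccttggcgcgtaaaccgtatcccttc
TFDP1, chr13:113584603-113584720, plus strand: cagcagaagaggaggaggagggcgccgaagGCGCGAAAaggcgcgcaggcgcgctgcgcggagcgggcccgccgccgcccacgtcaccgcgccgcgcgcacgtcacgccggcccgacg
The sites begin 33 and 20 bases before the RefSeq start in E2F1, 42 in E2F2, 53 in E2F3 and 120 in TFDP1. For E2F3 the site lies before the first of its 2 RefSeq starts and not before the second. E2F7, E2F4, E2F6 and TFDP2 had no match to these words in their windows, which says only that these letters are not there. Without their first T, the words matched at 2 places before the start of E2F7 and at 1 place after that of E2F6. E2F4 and TFDP2 still had no match. These shorter words occurred in 15.3% of all genes with an entry.

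With the inhibitor, 9 of the 10 genes fell and E2F5 rose (edgeR, adjusted p of at most 0.00183 for each). Over all 20783 genes tested, 65.4% were called, 27.3% lower and 38.1% higher. The FPKM values of the groups did not overlap for any of the 10 genes, with the inhibitor libraries below in 9 (30.0% of all genes tested) and above in 1 (41.7%, and 71.7% in either direction). The sizes differed widely by class, from a 7.33-fold decrease of E2F2 to a 1.27-fold decrease of E2F4 and E2F6. E2F2, E2F8 and E2F7 took ranks 4, 5 and 9 from the most negative log2 change among 1312 tested genes that the deposited table annotates as transcription factors, of which 31.7% were lower. In bulk RNA, fewer cells of a type (such as cycling cells) and less RNA per cell cannot be told apart, which applies to every value below.

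**Figure D1:**
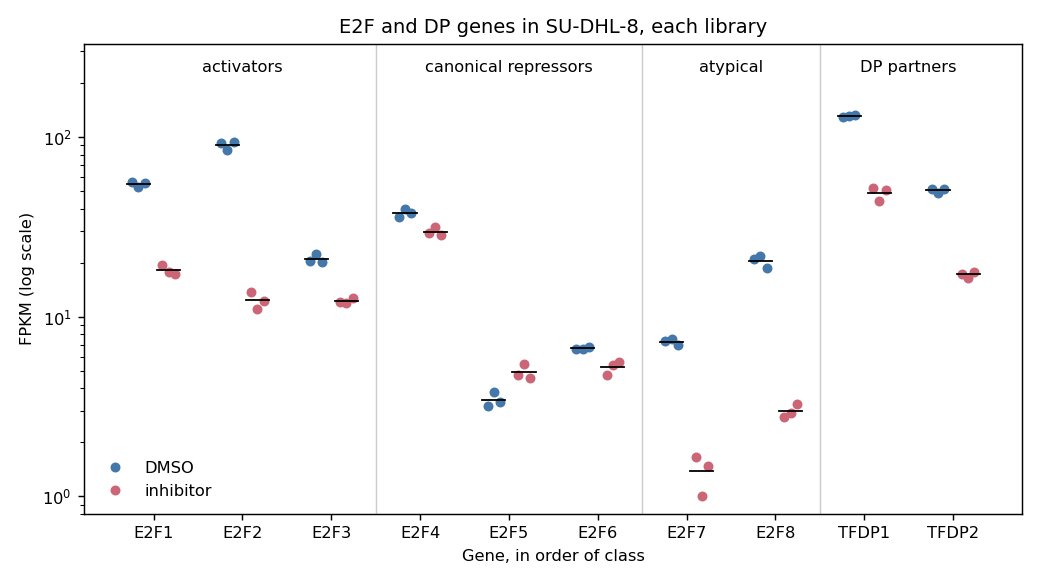
FPKM (log axis) of each E2F and DP gene in the 3 DMSO libraries (blue) and 3 inhibitor libraries (red), with horizontal lines at the group means and genes ordered by class. The inhibitor points lie below the DMSO points for every gene except E2F5, with the widest gaps for E2F2, E2F7 and E2F8.

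The libraries held total estimated counts of 53846028 to 75304441, or about 4 counts per read pair. The first principal component held 89.1% of the variance. B-cell genes were expressed in both groups, at 193 ± 6.12 FPKM with DMSO and 294 ± 28.2 with the inhibitor for the receptor subunit CD79A, 539 ± 17.6 and 375 ± 10.2 for CD79B, and 76.0 ± 1.61 and 42.3 ± 1.22 for the B-cell factor PAX5. The germinal centre genes BCL6 (6.75 ± 0.531 and 2.59 ± 0.354 FPKM) and CD38 (72.0 ± 0.503 and 33.7 ± 2.87 FPKM) were lower with the inhibitor. Their part in the results was not tested. Markers of other cell types were low, and the myeloid and the stromal and epithelial sums were higher with the inhibitor. The 4 myeloid markers summed to 0.632 to 0.832 FPKM with DMSO and 1.66 to 1.85 with the inhibitor, with CD33 called higher (0.038 and 0.875). CD14 was lower in mean FPKM (0.505 and 0.423), and CD14, LYZ and CSF1R were not called. The 4 stromal and epithelial markers summed to 0.099 to 0.146 and 0.897 to 1.21 FPKM, with COL1A2, EPCAM and KRT8 called higher. COL1A1 was lower in mean FPKM (0.110 and 0.082) and not called. CD33, COL1A2, EPCAM and KRT8 passed the filter on low counts only through the inhibitor libraries, so their calls are partly fixed by the filter. The T-cell marker CD3E reached at most 0.302 FPKM and was not tested. The part of these markers in the results was likewise not tested. Quantile normalization was tried in another test, limma on log2(FPKM + 0.5) over 14807 genes. It gave 4853 genes higher and 5776 lower, against 5260 and 5354 in limma on the same genes without it. The edgeR test of 20783 genes gave 7918 higher and 5672 lower. In each of these fits the 10 members stood at 1 higher and 9 lower.

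E2F1 (ENSG00000101412, chromosome 20, 33675477 to 33686385), the activator most often linked to both S phase entry and apoptosis, measured 56.3, 52.8 and 55.4 FPKM with DMSO and 19.5, 17.6 and 17.3 with the inhibitor. Every inhibitor library lay below every DMSO library. E2F1 fell 3.02-fold in mean FPKM (log2 change -1.60, SE 0.062, edgeR adjusted p = 4.60e-08). E2F2 (ENSG00000007968, chromosome 1, 23506438 to 23531233), an activator abundant in blood cells, measured 92.5, 85.3 and 93.8 FPKM with DMSO and 13.8, 11.0 and 12.2 with the inhibitor. It was the most abundant E2F mRNA with DMSO and fell by 2.88 on the log2 scale (SE 0.087, edgeR adjusted p = 1.43e-08). With inhibitor replicate 1 alone the log2 change was -2.70 for E2F2 and -2.86 for E2F8, so the order of these genes by size of decrease is not settled. E2F3 (ENSG00000112242, chromosome 6, 20401879 to 20493714), whose 2 promoters give the isoforms E2F3A and E2F3B that a gene total cannot separate, measured 20.4, 22.4 and 20.1 FPKM with DMSO and 12.04, 11.9 and 12.7 with the inhibitor. The decrease was smaller than for the other activators, but the groups stayed apart (log2 change -0.78, SE 0.054, edgeR adjusted p = 1.35e-06).

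The activators changed by unequal amounts within the same libraries. Ratios between members in a library do not depend on library scaling, and 6 pairs were compared by exact permutation test, two-sided, where 3 against 3 libraries cannot go below p = 0.1. The ratio of E2F1 to E2F2 in FPKM was 0.606 ± 0.014 with DMSO and 1.48 ± 0.105 with the inhibitor (n = 3 each, exact permutation p = 0.1, adjusted 0.15). E2F2 therefore stood above E2F1 in every DMSO library and below it in every inhibitor library. The ratio of E2F2 to E2F3 went from 4.34 ± 0.462 to 1.01 ± 0.117 (n = 3 each, exact permutation p = 0.1, adjusted 0.15), so that with the inhibitor the 2 genes had overlapping levels. The ratio of E2F1 to E2F3 went from 2.63 ± 0.231 to 1.49 ± 0.129 (n = 3 each, exact permutation p = 0.1, adjusted 0.15). None of the 3 ratios overlapped between groups, and none can pass the threshold at this number of libraries.

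The canonical repressors moved least. E2F4 (ENSG00000205250, chromosome 16, 67192155 to 67198918), the main E2F of resting cells and a partner of RBL1 and RBL2, measured 35.9, 39.7 and 37.6 FPKM with DMSO and 29.4, 31.7 and 28.4 with the inhibitor. The groups did not overlap (log2 change -0.35, SE 0.057, edgeR adjusted p = 0.000439). This value was -0.17 with upper-quartile factors and -0.16 under quantile normalization, still called. E2F6 (ENSG00000169016, chromosome 2, 11444375 to 11466177) measured 6.58, 6.61 and 6.82 FPKM with DMSO and 4.77, 5.39 and 5.59 with the inhibitor (log2 change -0.35, SE 0.072, edgeR adjusted p = 0.00183). The call ended with upper-quartile factors (log2 change -0.18, edgeR adjusted p = 0.0585), which moved the median of all genes by 0.17.

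E2F5 (ENSG00000133740, chromosome 8, 85177154 to 85214518), a repressor that acts with RBL1 and RBL2, was the 1 member that rose. It measured 3.18, 3.79 and 3.34 FPKM with DMSO and 4.73, 5.49 and 4.53 with the inhibitor, so its groups lay apart in the opposite order to E2F4 and E2F6 (log2 change 0.51, SE 0.096, edgeR adjusted p = 0.00107). The increase held in all 18 alternatives, between 0.42 and 0.68 on the log2 scale. Its 3′ end overlaps RBIS on the opposite strand, which did not pass the test (log2 change 0.25, edgeR adjusted p = 0.154). Reads there could be shared if counting ignored strand. The ratio of E2F4 to E2F5 went from 11.0 ± 0.467 to 6.08 ± 0.268, without overlap (n = 3 each, exact permutation p = 0.1, adjusted 0.15).

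The atypical repressors fell 5.25-fold (E2F7) and 6.84-fold (E2F8). E2F7 (ENSG00000165891, chromosome 12, 77021248 to 77065569) measured 7.32, 7.47 and 6.98 FPKM with DMSO and 1.67, 1.003 and 1.48 with the inhibitor (log2 change -2.39, SE 0.161, edgeR adjusted p = 1.09e-06). E2F8 (ENSG00000129173, chromosome 11, 19224063 to 19241620) measured 20.8, 21.7 and 18.6 FPKM with DMSO and 2.77, 2.91 and 3.26 with the inhibitor (log2 change -2.78, SE 0.078, edgeR adjusted p = 1.12e-08). E2F8 lies inside CSRP3-AS1 on the opposite strand, which reached at most 0.204 FPKM in a library. Both repressor genes are themselves known E2F targets that peak in S phase and curb E2F activity afterwards. The ratio of E2F7 to E2F8 overlapped between groups, at 0.357 ± 0.016 in DMSO libraries and 0.467 ± 0.129 in inhibitor libraries (n = 3 each, exact permutation p = 0.4, adjusted 0.4), and inhibitor replicate 2 held the lowest E2F7 value.

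The dimer partners fell nearly in step with the sum of the E2F genes. TFDP1 (ENSG00000198176, chromosome 13, 113584721 to 113641473), the main DP protein, measured 129.6, 132 and 133 FPKM with DMSO and 52.0, 44.2 and 50.5 with the inhibitor (log2 change -1.43, SE 0.064, edgeR adjusted p = 9.89e-08). TFDP2 (ENSG00000114126, chromosome 3, 141944428 to 142149544) measured 51.5, 48.6 and 51.3 FPKM with DMSO and 17.3, 16.5 and 17.8 with the inhibitor (log2 change -1.56, SE 0.045, edgeR adjusted p = 1.22e-08). Their ratio overlapped between groups (2.61 ± 0.097 and 2.84 ± 0.163, n = 3 each, exact permutation p = 0.2, adjusted 0.24). Summed over E2F1 to E2F8, the level fell from 242 ± 1.83 to 87.1 ± 1.56 FPKM, and over TFDP1 and TFDP2 from 182 ± 2.26 to 66.1 ± 4.65 FPKM. The ratio of the E2F sum to the DP sum was 1.33 ± 0.014 in DMSO libraries and 1.32 ± 0.097 in inhibitor libraries, with overlapping values. This E2F sum includes E2F7 and E2F8, which bind DNA without a DP partner, and the DP sum leaves out TFDP3. The ratio is therefore not one of dimer partners alone.

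**Figure D2:**
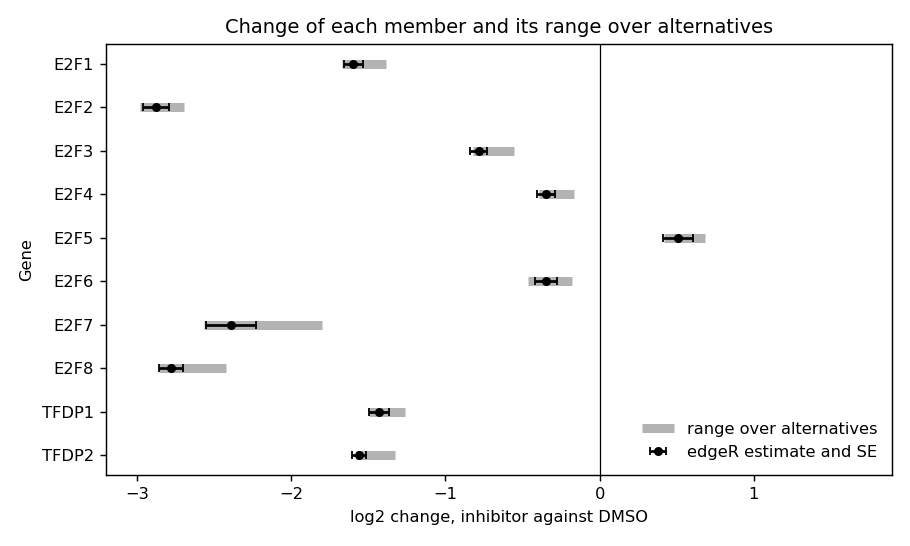
Log2 change of each gene, inhibitor against DMSO, as the edgeR estimate with its SE (black) and the range over 18 alternative analyses (grey). The ranges of all 10 genes stay on 1 side of 0, and E2F5 is the gene to the right.

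Another DP gene, TFDP3, appeared with the inhibitor. TFDP3 (ENSG00000183434, chromosome X, 133216662 to 133218354), known from testis and some tumours, is not among the 10 members but carries the same family annotation in the deposited table. It had 0 counts in every DMSO library and measured 9.34, 9.71 and 8.26 FPKM with the inhibitor, at least 279-fold higher against 12 counts over the DMSO group (edgeR adjusted p = 8.67e-08). Being at 0 with DMSO, it passed the filter on the strength of the inhibitor libraries, so its call was nearly fixed in advance. With the inhibitor TFDP3 made up 12.2% ± 1.51 of the summed FPKM of the 3 DP genes. Its promoter is shown because it is rich in CG pairs, the sites that DNMT1 methylates. Methylation itself was not analysed here. CG is in capitals.
TFDP3, chrX:133218355-133218504, minus strand: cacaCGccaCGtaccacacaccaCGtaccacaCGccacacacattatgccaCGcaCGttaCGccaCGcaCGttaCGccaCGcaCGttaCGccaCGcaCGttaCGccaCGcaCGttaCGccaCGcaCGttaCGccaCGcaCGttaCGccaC
The stretch of 150 bases holds 25 CG pairs, and a repeat unit of 14 bases occurs 7 times in it. The whole TFDP3 window of 300 bases holds 39 CG pairs, more than 91.3% of all promoter entries. Of the members with an entry, TFDP1 (52) and E2F1 (46) held more, while E2F4 held 24 and the median over all entries was 14. None of the E2F words above occurred in the TFDP3 window.

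The balance of activating and repressive E2F mRNA differed by class of repressor. Activators (E2F1, E2F2 and E2F3) summed to 169, 160.5 and 169 FPKM with DMSO and 45.4, 40.6 and 42.3 with the inhibitor. Canonical repressors (E2F4, E2F5 and E2F6) summed to 45.7, 50.1 and 47.7 FPKM with DMSO and 38.9, 42.6 and 38.5 with the inhibitor. The ratio of activators to canonical repressors was 3.70, 3.20 and 3.55 in the DMSO libraries and 1.17, 0.954 and 1.10 in the inhibitor libraries, so the sums came close to equal. Atypical repressors (E2F7 and E2F8) summed to 28.2, 29.1 and 25.6 FPKM with DMSO and 4.43, 3.92 and 4.74 with the inhibitor. The ratio of activators to atypical repressors moved the other way, from 6.01, 5.51 and 6.61 to 10.2, 10.4 and 8.93. That rise did not extend to E2F2, which fell 7.33-fold in mean FPKM against 6.33-fold for the atypical sum. E2F1 and E2F3 fell less, 3.02-fold and 1.71-fold. No test was made on these sums, since the members were chosen with results known.

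**Figure D3:**
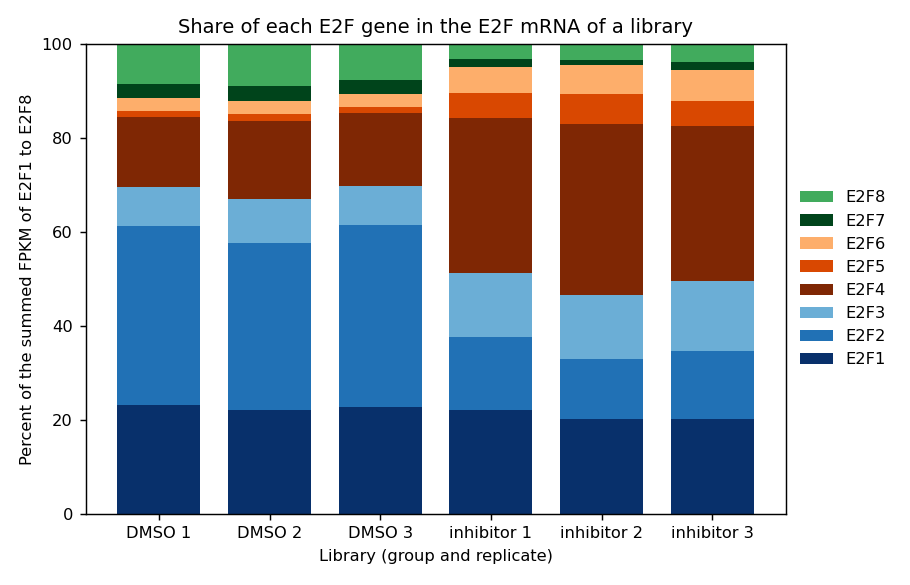
Stacked bars giving the percent of the summed FPKM of E2F1 to E2F8 that each gene takes in each library, with activators in blue, canonical repressors in brown to orange and atypical repressors in green. E2F2 takes 35.6 to 38.7% in the DMSO libraries and 12.7 to 15.5% in the inhibitor libraries, while E2F4 takes 14.8 to 16.6% and 33.1 to 36.4%.

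The order of the members by level changed accordingly. With DMSO it ran, from highest to lowest mean FPKM, TFDP1, E2F2, E2F1, TFDP2, E2F4, E2F3, E2F8, E2F7, E2F6 and E2F5, and only E2F3 and E2F8 overlapped as neighbours. With the inhibitor it ran TFDP1, E2F4, E2F1, TFDP2, E2F2, E2F3, E2F6, E2F5, E2F8 and E2F7. Here E2F1 overlapped TFDP2, E2F2 overlapped E2F3, and E2F6 overlapped E2F5. Of the E2F sum, activators made up 68.8% ± 1.58 with DMSO and 49.1% ± 2.29 with the inhibitor. Canonical repressors made up 19.8% ± 1.05 and 45.9% ± 2.64, and atypical repressors 11.4% ± 0.811 and 5.01% ± 0.521. E2F1 kept a similar share, 22.7% ± 0.588 and 20.9% ± 1.02, with values that overlapped between groups.

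The pocket proteins that bind E2F factors did not move together. RB1, which binds the activators, measured 59.8, 60.4 and 56.0 FPKM with DMSO and 33.3, 34.1 and 35.6 with the inhibitor (log2 change -0.78, SE 0.044, edgeR adjusted p = 3.50e-07). RBL1 (p107), itself an E2F target, fell further, from 15.3, 15.3 and 13.5 FPKM to 3.53, 3.00 and 3.99 (log2 change -2.08, SE 0.099, edgeR adjusted p = 1.43e-07). RBL2 (p130), the pocket protein of resting cells, rose from 7.95, 7.60 and 8.72 FPKM to 10.9, 11.7 and 12.2 (log2 change 0.51, SE 0.059, edgeR adjusted p = 4.21e-05). None of the 3 genes overlapped between groups, which was also so for 71.7% of all genes tested. Of the pocket partners of E2F4, which fell, and E2F5, which rose, RBL1 fell and RBL2 rose.

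The genes that E2F factors control in S phase fell throughout. Of 35 known E2F target genes of G1/S, all 35 were lower, where 27.3% of all genes tested were. Their median log2 change was -2.08 against 0.14 over all genes tested. CCNE2, a cyclin of S phase entry, fell most (log2 change -3.41). The primase subunit PRIM1 (-3.07), thymidine kinase TK1 (-2.83) and the replication clamp PCNA (-2.57) fell too (edgeR adjusted p of at most 5.07e-07 for these 4 genes). PCNA measured 909, 921 and 917 FPKM with DMSO and 169.8, 137 and 159 with the inhibitor. DNMT1, the inhibitor's target and also in this list, went from 33.0 ± 0.690 to 12.7 ± 0.774 FPKM (log2 change -1.38, edgeR adjusted p = 5.38e-08). Its mRNA does not check an inhibitor of the protein. E2F target genes of apoptosis did not share that direction, with a median of -0.04. Of 8 such genes, 3 were lower (37.5%, against 27.3% of all genes tested) and 1 higher (12.5%, against 38.1%). BBC3 (log2 change -1.21) and BCL2L11 (-0.72), which encode death-promoting BCL2 relatives, fell, as did the apoptosome scaffold APAF1 (-0.31, edgeR adjusted p = 0.00659). The APAF1 call ended with upper-quartile factors (edgeR adjusted p = 0.160) and with inhibitor replicate 1 alone (edgeR adjusted p = 0.103). TP73, a p53 relative, rose from 0.110 ± 0.073 to 0.414 ± 0.050 FPKM.

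**Figure D4:**
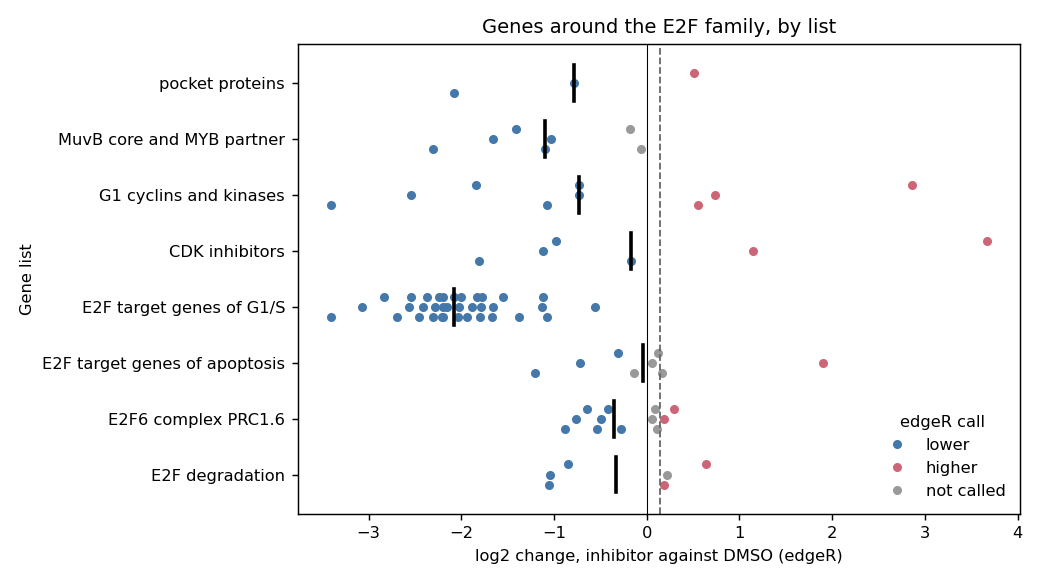
Log2 change (inhibitor against DMSO, edgeR) of the genes of 8 lists around the E2F family, coloured by call, with the median of each list (black bar) and of all genes tested (dashed line, 0.14). Genes at 0 counts with DMSO are left out of the points. All 35 G1/S target genes lie left of 0, while the 7 other lists drawn have medians between -1.10 and -0.04.

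The MuvB core activates or represses cell cycle genes, depending on its partners. Of 7 genes in this list, 5 were lower (71.4%, against 27.3% of all genes tested) and 0 higher (against 38.1%). The median log2 change was -1.10. FOXM1, a factor of G2 and mitosis, fell most (-2.31), then MYBL2, an E2F target and MuvB partner (-1.66, from 263 ± 7.85 to 83.6 ± 8.51 FPKM), and the MuvB subunits LIN9 (-1.41), LIN52 (-1.10) and LIN54 (-1.03). The edgeR adjusted p was at most 5.57e-06 for each. LIN37 and RBBP4 were not called, at -0.18 and -0.06.

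Upstream of the pocket proteins, 6 of 9 G1 cyclins and kinases were lower and 3 higher (median -0.73). These are 66.7% and 33.3%, against 27.3% and 38.1% of all genes tested. The lower genes CCNE1, CCNE2 and CDC25A were already counted among the E2F target genes of G1/S, so the 2 lists are not separate. RBL1 and MYBL2 also stand in that list and in another. One of the higher calls, the D-type cyclin CCND1 (log2 change 0.74), was lost in 1 of 17 alternatives, and its change ranged from -0.17 to 0.91. Besides CCNE2, the phosphatase CDC25A (log2 change -2.54), the kinase CDK2 (-1.84) and CCNE1 (-1.08) fell. CCND2, a D-type cyclin, rose from 0.158 ± 0.005 to 1.16 ± 0.217 FPKM (log2 change 2.86, edgeR adjusted p = 1.12e-06). CCND3, by far the most abundant D-type cyclin mRNA, fell from 197.7 ± 12.9 to 119.9 ± 10.7 FPKM (log2 change -0.73, edgeR adjusted p = 1.07e-05). Of 7 CDK inhibitors, 3 were higher (42.9%, against 38.1% of all genes tested) and 4 lower (57.1%, against 27.3%), with a median of -0.17. One of the lower calls, CDKN2A (log2 change -0.17, edgeR adjusted p = 0.0401), held in only 6 of 18 alternatives, over which its change ranged from -0.21 to 0.03. CDKN1A (p21), which blocks CDK2, rose from 12.2 ± 0.762 to 27.1 ± 1.28 FPKM (log2 change 1.15, edgeR adjusted p = 2.89e-07). CDKN2B (p15), an inhibitor of CDK4 and CDK6, rose from 0.244 ± 0.008 to 3.18 ± 0.776 FPKM (log2 change 3.68, edgeR adjusted p = 3.87e-07). CDKN1C (p57) was at 0 counts with DMSO and reached 2.21 ± 0.269 FPKM, at least 100.1-fold higher. Like TFDP3, it passed the filter only through its inhibitor libraries. CDKN2C (p18) and CDKN2D (p19) fell, by 1.81 and 1.12 on the log2 scale.

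E2F6 and its Polycomb-type complex, PRC1.6, are known to silence a small set of germline genes together with DNA methylation. Of 12 genes of the complex, 7 were lower (58.3%, against 27.3% of all genes tested) and 2 higher (16.7%, against 38.1%). The median log2 change was -0.35. With upper-quartile factors or quantile normalization, 5 were higher. PCGF6 (-0.88), L3MBTL2 (-0.77), YAF2 (-0.64), MGA (-0.54) and WDR5 (-0.49) fell (edgeR adjusted p of at most 4.90e-05 for each). Of 6 germline genes in the list, 5 were called higher, at low levels, where 38.1% of all genes tested were. SLC25A31, SMC1B and TUBA3E passed the filter only through the inhibitor libraries, so that count is partly fixed by the filter. TUBA3C, with 6 counts in all, was not tested. STAG3, a meiotic cohesin subunit, measured 2.33, 1.72 and 2.21 FPKM with DMSO and 3.83, 3.22 and 4.23 with the inhibitor (log2 change 0.84, SE 0.130, edgeR adjusted p = 0.000285). SMC1B, another meiotic cohesin subunit, was at 0.014 ± 0.012 FPKM and then 0.165 ± 0.021 (edgeR adjusted p = 0.00202). SLC25A31, a testis ADP/ATP carrier, had 0 counts with DMSO and 86 in all with the inhibitor, at least 8.53-fold higher. With inhibitor replicate 1 alone, where the DMSO libraries supply the spread, SMC1B and SLC25A31 lost their calls (edgeR adjusted p = 0.0607 and 0.0662). The log2 change of SMC1B was then 3.54, against 3.44 with all libraries. The testis tubulins TUBA3D and TUBA3E, near-identical copies whose reads can be shared, went from 0.991 ± 0.250 to 4.18 ± 0.718 FPKM and from 0.122 ± 0.031 to 1.92 ± 0.473 FPKM.

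The E2F6 core word TCCCGC, searched on both strands, occurred in a promoter entry of STAG3, SMC1B, TUBA3C, TUBA3D and TUBA3E and not in that of SLC25A31. TUBA3D and TUBA3E are near-identical, so their matches are not separate findings. Over all genes with an entry, 30.4% held it. Entries of E2F1, E2F2, E2F3, E2F6, TFDP1, TFDP2 and RBL1, which all fell, held it too. Those of E2F4 and E2F7 did not. The word also lies inside the E2F site word TTTCCCGC, so the 2 searches overlap.

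Of 6 genes that direct the breakdown of E2F proteins or of their regulators, 3 were lower (50.0%, against 27.3% of all genes tested) and 2 higher (33.3%, against 38.1%), with a median log2 change of -0.33. CDC20 (-1.05), the F-box protein SKP2 (-1.04) and cyclin F, CCNF (-0.85), fell. FZR1, the APC/C activator of G1, rose from 5.45 ± 0.211 to 8.49 ± 0.523 FPKM (log2 change 0.63, edgeR adjusted p = 1.61e-05). FBXW7, which targets cyclin E, was called at a log2 change of 0.19 (edgeR adjusted p = 0.0228), but not in 8 alternatives, among them limma on log2(FPKM + 0.5) (adjusted p = 0.0576) and the fits without DMSO replicate 1 (0.0697), DMSO replicate 3 (0.102) or inhibitor replicate 1 (0.06).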

How the data were processed

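The authors deposited 1 table with an estimated count and an FPKM value (a level scaled to gene length and library depth) for each gene and library, per the file headers. Tools named, without their roles, per the submitters' processing notes are HISAT2 2.2.1, StringTie 2.1.6, cutadapt 1.9, edgeR and DESeq2. The notes name the mouse build mm10, but 34105 of 35974 deposited gene IDs are human IDs of GENCODE release 29, and 99.78% of those overlap their GRCh38 position. Counts of 4 were more frequent than counts of 3 or 5 (1319.8 genes per library against 725.8 and 474.5), so 4 counts were taken as about 1 read pair. No source used here says whether counting was strand-specific.

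Libraries were grouped by their titles. The labels do not say whether libraries of 1 group are separate cultures. The p-values therefore reflect library-to-library spread, possibly technical. Libraries within a group were not duplicates (chi-square per degree of freedom of 3.07 to 6.55 on counts divided by 4). Genes were tested by quasi-likelihood in edgeR 4.0.16 under R 4.3.3 (filterByExpr, TMM, Benjamini-Hochberg over 20783 tested genes, threshold 0.05, two-sided), checked on simulated counts. Alternatives used DESeq2 1.42.0, limma 3.58.1, other scalings and filters, a replicate block and left-out libraries. Where all DMSO libraries were at 0, the fold is against 12 counts over that group (3 read pairs), which covers counting error only. Promoter sequences are RefSeq's (GRCh38.p14). The members and all 10 gene lists were chosen with earlier results of these data known. Genes named are all members, every gene of the lists of pocket proteins, the DP gene TFDP3 and germline genes, and up to 5 called genes of each other list with a mean count of at least 100 and the largest change, with DNMT1. Some genes that this rule or the marker lists name are not reported here. A few others, named to account for a count, were chosen after their values were seen. Values are mean FPKM ± SD over 3 libraries.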

Additional observations from a re-analysis of the deposited data

How the results depend on the processing

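The 9 lower and 1 higher members were found in all alternatives except upper-quartile factors, where E2F6 was not called, so 8 were lower. Of the values for the members and the genes named by rule, 905 kept their side of the threshold, 13 did not (E2F6, APAF1, SMC1B, SLC25A31 and FBXW7) and none turned its sign. Of genes named besides, CDKN2A, CCND1 and E2F6P4 also lost calls. No paired structure was seen: same-numbered libraries of the 2 groups had correlations of 0.0005, 0.0211 and 0.0027 in their deviations, and with the replicate number as a block 7448 genes were higher and 5368 lower, with the 10 members called as before. The number of genes higher was 4826 after a filter at FPKM 1 in 3 libraries. In limma on log2 values it was 5260 (pseudocount 0.5), 5233 (0.1) and 5259 (1), and 4853 under quantile normalization, where fewer genes were tested (12395 to 14807). With that FPKM filter 1 G1 cyclin or kinase was higher. Apoptosis targets that were higher numbered 2 with DESeq2, RLE factors, counts divided by 4 or the replicate block, 4 with upper-quartile factors, 3 with the FPKM filter or quantile normalization, 0 with limma at each pseudocount, and 1 to 2 with 1 library left out. PRC1.6 genes that were higher numbered 5 with upper-quartile factors, the FPKM filter or quantile normalization. Germline genes higher numbered 3 with the FPKM filter, counts divided by 4, limma at each pseudocount, quantile normalization or inhibitor replicate 1 alone. Breakdown genes higher numbered 1 with limma, quantile normalization or inhibitor replicate 1 alone, and 1 to 2 with 1 library left out. Without E2F3 among the activators, the log2 change of the ratio to canonical repressors was -1.99 in place of -1.70, and to atypical repressors 0.41 in place of 0.70. Other than the genes tested and class members named here, the cause of these shifts was not tested.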

Other observations

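Besides TFDP3, pseudogenes and antisense or intronic transcripts named after the members were low. The X-linked pseudogene E2F6P4 (chromosome X, 136097835 to 136098348) measured 0.058, 0 and 0 FPKM with DMSO, 2 counts in all, and 0.590, 0.387 and 1.19 with the inhibitor. It passed the filter only through the inhibitor libraries and was called higher in 11 of 12 alternatives. Reads of E2F6, which fell, could be shared with its copies. E2F6P1 measured 1.85 FPKM with DMSO and 1.83 with the inhibitor, E2F6P2 0.510 and 0.549, and E2F6P3 0.278 and 0.461, and none of these 3 was called. The intronic transcript E2F3-IT1 was at 0 with DMSO and at 0.129 FPKM with the inhibitor and was not tested.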
